A study of Mus musculus with 12 samples.

Results

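Megalin and cubilin are the endocytic receptors on the apical surface of the kidney's proximal tubule, and the 8 genes described here encode them and the proteins they work with. The members are a list of genes by name: Lrp2 (megalin), Cubn (cubilin), Amn (amnionless), Dab2, Clcn5, Folr1, Lrpap1 and Ocrl. They are 8 of the 13465 genes in the table, and 34 of the 25740 transcript rows matched to a gene belong to them. All 8 passed the filter on low values and were among the 12469 genes tested.

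RNA was sequenced from mouse renal cortex in 4 groups of 3 libraries. Per the labels, WT sham and CKO sham were sham-operated wild-type and knockout kidneys, and WT IRI and CKO IRI were wild-type and knockout kidneys after ischemia-reperfusion injury (IRI). Per the design text, the mice were made to lack Gpx3, the gene of a secreted glutathione peroxidase, in tubular epithelial cells, and "knockout" and "CKO" below mean the libraries so labelled; the injury was bilateral, 30 min without blood flow and then 48 h of reperfusion, and the control groups are labelled wild type. The sham and injured libraries are named below by the numbers in their labels (1, 2 and 3 in each sham group; 13, 24 and 49 in WT IRI; 7, 15 and 29 in CKO IRI). The Cre line or promoter behind the deletion, the strain and the age are not given in the sources used here, nor is it said that each library came from a separate animal, so each p-value reflects variation among the libraries at hand, which may be technical in part.

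Megalin is a very large receptor of the low-density lipoprotein receptor family. Cubilin has no transmembrane segment of its own; amnionless anchors it, and cubilin and amnionless reach the cell surface together. Between them the receptors retrieve filtered albumin, vitamin-binding proteins and small hormones from the primary urine, and their loss gives tubular proteinuria. Their cargo enters through clathrin-coated pits with the adaptor Dab2, is released in acidifying endosomes that depend on the chloride transporter of Clcn5, and the receptors recycle to the surface under control of the lipid phosphatase of Ocrl.

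Library facts that touch the values are these. Summed FPKM (a level scaled for transcript length and library size) ran from 391002 to 422328 per library, and the read depth is unknown. Gpx3 ranged from 4476 to 5664 FPKM in WT sham and from 2501 to 3299 in CKO sham, with no overlap (-0.81, SE 0.36, limma adjusted p = 0.755), but from 1075 to 3568 in WT IRI and from 2779 to 3723 in CKO IRI, which overlapped (0.52, SE 0.36, adjusted p = 0.421). Its level therefore did not separate the injured libraries labelled CKO from those labelled WT, and every direction between them below rests on the labels. The extraction protocol in the labels speaks of joint capsule; all 24 proximal tubule markers were in the table and summed to between 3740 and 14500 FPKM per library, whereas 1 of 6 joint capsule and cartilage markers was present, at 1.63 FPKM or less. Library 49 of WT IRI held 8115 FPKM of proximal tubule markers against 4013 and 3740 in libraries 13 and 24. It also had the lowest Gpx3 of all 12 libraries, 1075 FPKM. Library 1 of CKO sham held 300.4 FPKM of endothelial markers against 190.6 to 208.4 in the other sham libraries. Values without these libraries stand beside the comparisons they enter. The proximal tubule sum weighs Kap more than any other marker. Kap averaged 4265 ± 194.8 FPKM (SD) in WT sham and 5415 ± 1485 FPKM in CKO sham. After injury it averaged 1014 ± 1095 FPKM in WT IRI and 2482 ± 1724 FPKM in CKO IRI.

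The receptor pair was abundant in sham kidney. In WT sham, Lrp2 (GRCm38 chr2:69424340-69586065, minus strand) stood at 169.7, 182.8 and 181.1 FPKM, and Cubn (chr2:13276338-13491813, minus strand) at 66.3, 66.4 and 71.4 FPKM. Both lie on chromosome 2 and are protein-coding. After injury in WT, Lrp2 was at 34.4, 39.4 and 77.7 FPKM in libraries 13, 24 and 49, and Cubn at 8.32, 16.2 and 31.4 FPKM. Every injured WT library lay below every WT sham library for both receptors, and library 49 was the highest of the injured WT libraries for both. Lrp2 fell by 1.89 on the log2(FPKM + 1) scale (SE 0.29, 3.70-fold lower, limma adjusted p = 0.00106), and Cubn fell by 1.99 (SE 0.36, 3.99-fold lower, adjusted p = 0.00229). Without library 49 they fell by 2.24 and 2.45 (adjusted p = 0.000101 and 0.000149). Fewer proximal tubule cells and less receptor RNA per cell cannot be told apart in RNA from whole cortex; this holds for every member below.

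The sequences upstream of the receptor genes and of Amn are shown because Lrp2 and Cubn fell together while Amn, which encodes cubilin's partner, did not. Each is the RefSeq window before the gene's start (build GRCm38.p6, up to 250 bases, cut where any annotated transcript of the gene begins), read 5′ to 3′ on the gene's own strand, with matches to the searched motifs in capitals.
Lrp2, chr2:69586066-69586279, minus strand: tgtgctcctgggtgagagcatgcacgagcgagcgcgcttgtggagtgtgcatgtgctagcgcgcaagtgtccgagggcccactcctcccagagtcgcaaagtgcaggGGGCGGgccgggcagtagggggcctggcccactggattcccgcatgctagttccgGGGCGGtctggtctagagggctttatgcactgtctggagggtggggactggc
Cubn, chr2:13491877-13492126, minus strand: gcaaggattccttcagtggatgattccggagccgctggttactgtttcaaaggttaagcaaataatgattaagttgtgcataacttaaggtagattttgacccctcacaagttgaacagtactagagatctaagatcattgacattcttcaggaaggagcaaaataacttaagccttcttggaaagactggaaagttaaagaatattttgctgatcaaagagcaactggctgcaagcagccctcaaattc
Amn, chr12:111270846-111271094, plus strand: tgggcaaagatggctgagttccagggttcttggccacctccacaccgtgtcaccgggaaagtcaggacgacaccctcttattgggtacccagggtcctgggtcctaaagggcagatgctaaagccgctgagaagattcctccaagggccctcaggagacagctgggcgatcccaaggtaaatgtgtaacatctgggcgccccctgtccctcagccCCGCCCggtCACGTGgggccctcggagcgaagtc
Of the 6 motifs searched, on both strands, those found here were the E-box, letters CACGTG, and the GC box, letters GGGCGG. The others were an HNF1 motif (letters GTTAAT), an HNF4 core (letters CAAAGTCC), an AP-1 site (letters TGANTCA) and a TATA box (letters TATAAA). The Lrp2 window was 65.9% G and C and held 2 GC boxes, 143 and 88 bases before the RefSeq start. The Cubn window was 39.6% G and C and held none of the 6 motifs. The Amn window was 61.0% G and C, with an E-box 26 bases and a GC box 35 bases before the start. Of 32851 RefSeq promoter windows of 250 bases, 32.7% held the GC box, 6.02% the E-box, 6.43% the HNF1 motif and 1.2% the HNF4 core, and the AP-1 site and the TATA box were in 6.75% and 12.4%. Entries were found for 7 of the 8 members, Folr1 being the exception. The GC box stood in the Lrp2 and Amn windows and not in that of Cubn. In the windows not shown, Lrpap1 held 5 GC boxes, Ocrl 2 and a Clcn5 window 1, and Dab2 held 0. Of the other motifs, an HNF1 motif stood in a Dab2 window, an HNF4 core in that of Ocrl and a TATA box in a Clcn5 window. A match is a description of letters, and no binding was measured here. Any link between these letters and the levels was not tested.

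**Figure D1:**
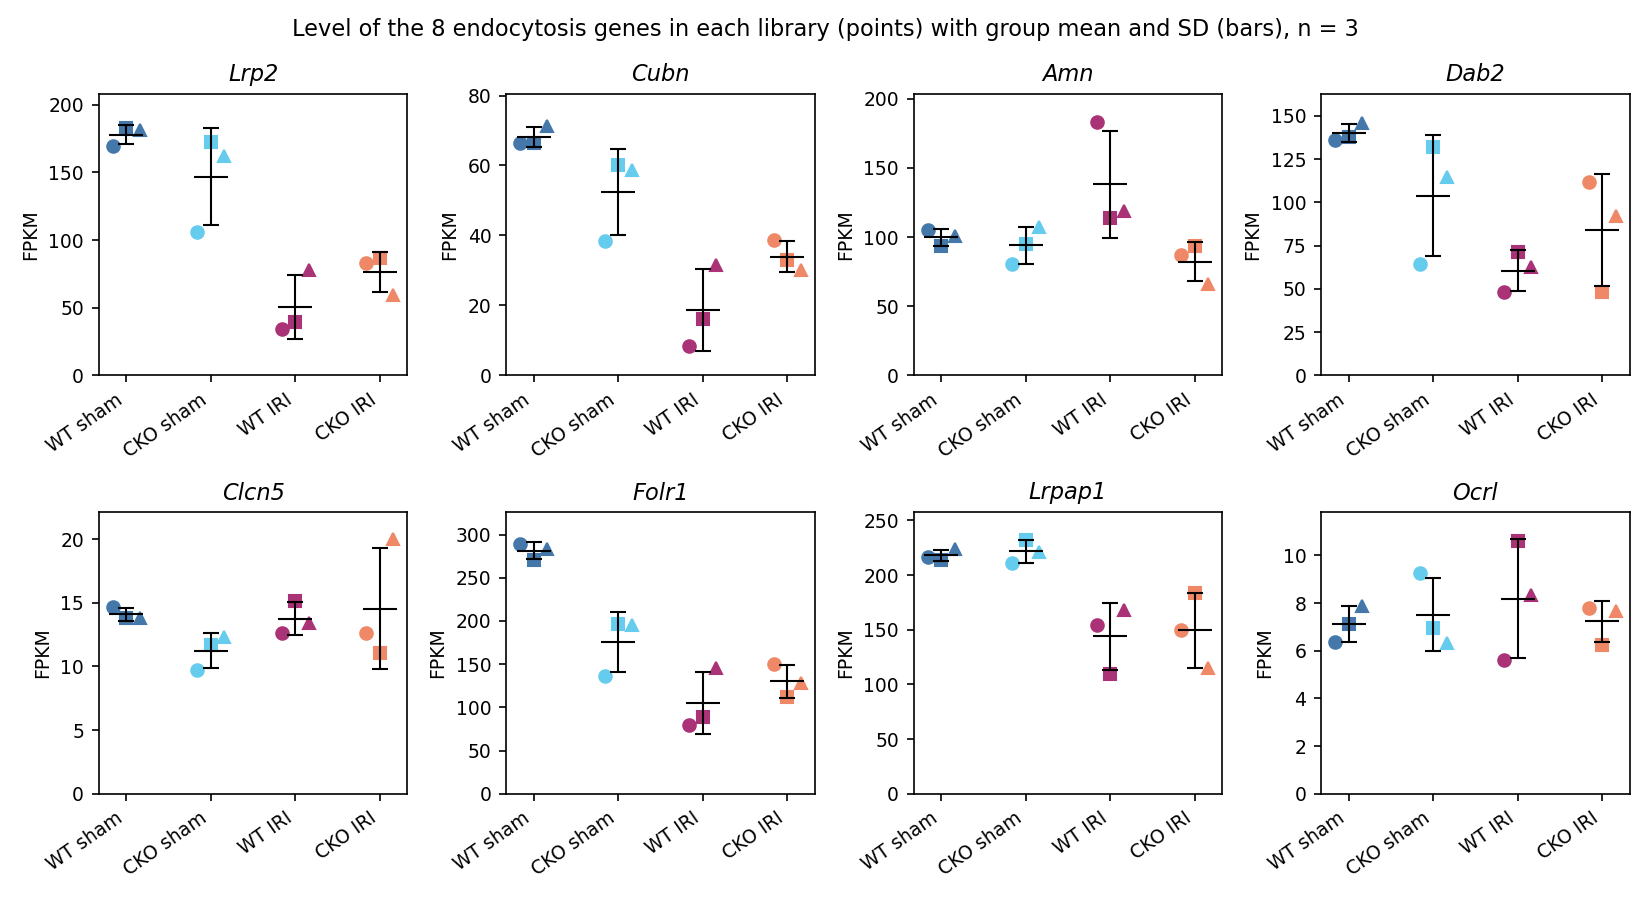
Level of each of the 8 genes in FPKM (vertical axis, from 0) in every library (points; the 3 marker shapes separate the libraries of a group), with the group mean and SD (black bars, n = 3). Lrp2, Cubn, Dab2, Folr1 and Lrpap1 have all 3 WT IRI points below all 3 WT sham points, whereas the WT IRI points of Amn lie above its WT sham points.

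Amn, on chromosome 12 (chr12:111271095-111276426, plus strand), did not follow its partner. It stood at 104.9, 93.4 and 101 FPKM in WT sham and at 182.9, 113.5 and 118.7 FPKM in WT IRI, so all 3 injured WT libraries lay above the sham libraries. The difference of 0.43 (SE 0.20, 95% interval 0.00 to 0.87) did not pass the threshold (adjusted p = 0.105). In the knockout, Amn was at 80.6, 94.6 and 107.3 FPKM in sham and 87.0, 93.2 and 66.2 FPKM after injury, which overlapped. Amn has 1 deposited transcript row, of 1701 bases, of 3 annotated transcripts.

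The adaptor and the folate receptor fell in WT as well. Dab2 (chr15:6299788-6440712, plus strand), which links the receptors' cytoplasmic tails to clathrin and which macrophages also express, went from 135.8, 137.9 and 145.9 FPKM to 48.0, 71.1 and 62.6 FPKM. Folr1 (chr7:101858331-101870788, minus strand), the lipid-anchored folate receptor of the proximal tubule, went from 289.5, 270.5 and 283.5 FPKM to 80.2, 89.2 and 145.7 FPKM. Neither gene's groups overlapped. Dab2 fell by 1.21 on the log2 scale (SE 0.32, 2.32-fold lower, adjusted p = 0.0137) and Folr1 by 1.46 (SE 0.22, 2.75-fold lower, adjusted p = 0.00104).

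Lrpap1 (chr5:35091501-35105766, minus strand) encodes the receptor-associated protein, the chaperone that keeps megalin from binding ligands in the endoplasmic reticulum. It was at 216.1, 214.1 and 223.6 FPKM in WT sham and at 154.5, 109.8 and 168.1 FPKM in WT IRI, again without overlap. Its fall of 0.62 (SE 0.19, 1.53-fold lower, adjusted p = 0.025) was the smallest of the called members. That call was lost without library 24 of WT IRI (fell by 0.43, adjusted p = 0.0834) and without any 1 of the 3 WT sham libraries (adjusted p = 0.0625 to 0.0729). The call of Dab2 was lost without library 13 of WT IRI (fell by 1.06, adjusted p = 0.0533).

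The genes of the endosomal chloride transporter and the phosphatase had overlapping groups in this comparison. Clcn5 (chrX:7153810-7319358, minus strand), the gene mutated in Dent disease, was at 14.7, 13.8 and 13.8 FPKM in WT sham and 12.6, 15.2 and 13.4 FPKM in WT IRI. Ocrl (chrX:47912387-47965868, plus strand), the gene of Lowe syndrome, was at 6.37, 7.13 and 7.88 FPKM and then at 5.62, 10.6 and 8.33 FPKM. Their differences were -0.04 (95% interval -0.45 to 0.38) and 0.14 (95% interval -0.31 to 0.60), with adjusted p = 0.889 and 0.609. These intervals leave room for changes in either direction and do not show that the levels stayed alike.

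In all, 5 of the 8 members were called lower after injury in WT and 0 higher, where 11.9% of all tested genes were called lower and 25.1% higher. With trimmed-mean scaling, under which the median over all tested genes was 0.00 rather than 0.12, the same count of 5 stood against 17.4% called lower and 18.4% higher; quantile normalization gave 17.4% and 17.7%. The same 5 had no overlap between groups in the lower direction, against 19.5% of all tested genes, and 1 (Amn) in the higher direction, against 35.2%. The members' median change was -0.91 against 0.12 over all tested genes. In the same libraries 20 of 24 proximal tubule markers fell, their summed level going from 13610 to 13880 FPKM in WT sham to 3740 to 8115 FPKM in WT IRI, and 10 of 10 tubular injury markers rose, from 1288 to 1377 FPKM to 4981 to 7870 FPKM. Of 12 macrophage markers 5 rose, their sum going from 112.2 to 129.2 FPKM to 163.7 to 334.8 FPKM, and 4 of 8 fibroblast markers rose (median 1.35). Of 8 endothelial markers 4 fell (median -0.88), their sum going from 190.6 to 205.3 FPKM to 70.5 to 146.9 FPKM. Of 8 markers of the thick ascending limb and distal tubule 4 fell (median -0.75), as did 2 of 7 podocyte markers (median -0.60). Of 8 collecting duct markers 2 rose and 1 fell, and 0 of 4 blood cell markers were called. The part of these shifts in the members' changes was not tested.

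**Figure D2:**
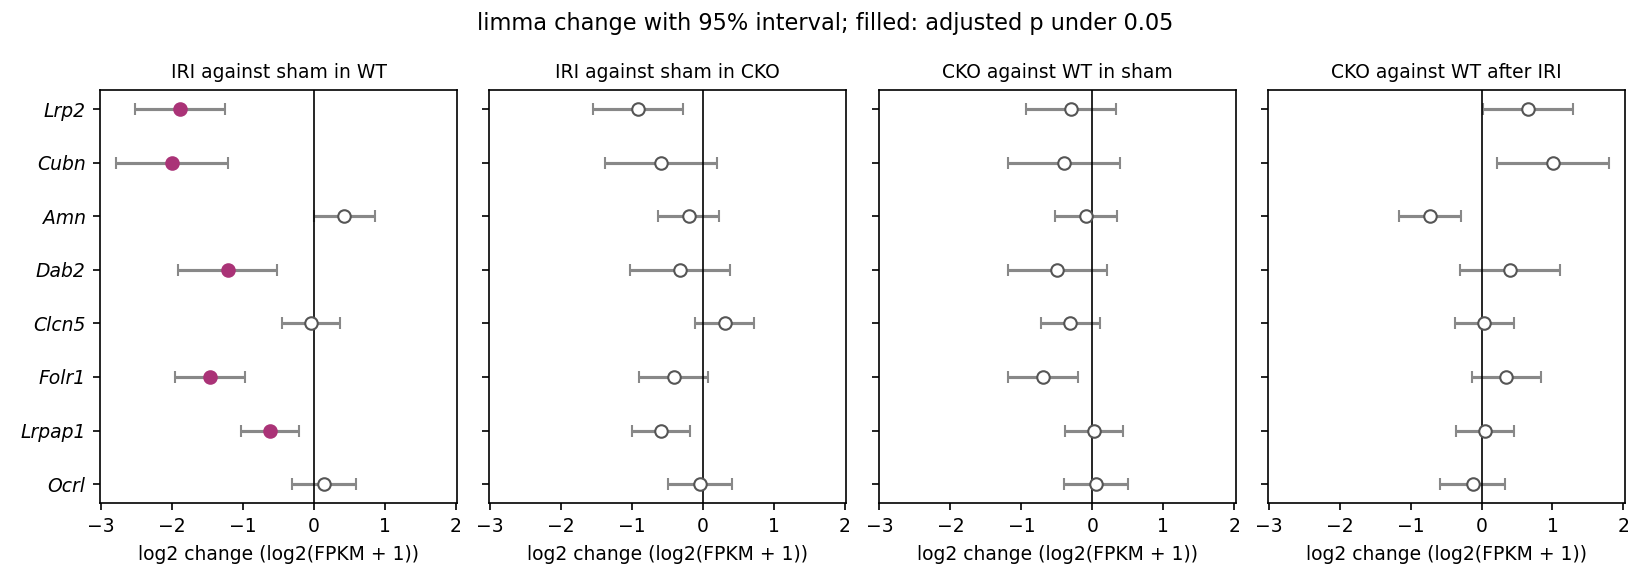
Estimated change of each gene on the log2(FPKM + 1) scale (horizontal axis) with its 95% interval in 4 comparisons; filled points passed an adjusted p under 0.05. The 5 filled points are all in the comparison of injury with sham in WT, at -1.99 to -0.62, and no point is filled in the other 3 panels.

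After injury in the knockout 0 of the 8 members were called by limma (1.48% of all tested genes were called lower and 5.7% higher, or 2.06% and 4.63% with trimmed-mean scaling and 2.37% and 4.12% with quantile normalization). Lrp2 was at 106.0, 172.7 and 162.1 FPKM in CKO sham and at 83.3, 86.5 and 59.4 FPKM in CKO IRI. The injured libraries were all below the sham libraries, with a difference of -0.92 (SE 0.29, 95% interval -1.56 to -0.29, adjusted p = 0.0801). Cubn was at 38.3, 60.2 and 58.6 FPKM and then at 38.8, 33.1 and 30.0 FPKM; library 7 reached the level of sham library 1, and the difference was -0.59 (SE 0.36, adjusted p = 0.346). Lrpap1 was at 211.2, 232.4 and 221 FPKM and then at 149.4, 184 and 114.8 FPKM, without overlap, at -0.59 (SE 0.19, adjusted p = 0.0825).

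Among the other members in the knockout, the sham and injured groups overlapped. Folr1 was at 135.8, 196 and 194.9 FPKM in CKO sham and 150.6, 112.5 and 128.4 FPKM in CKO IRI (-0.42, adjusted p = 0.284). Dab2 was the most uneven, at 64.4, 131.8 and 114.7 FPKM and then 111.5, 48.4 and 92.0 FPKM (-0.32, adjusted p = 0.578). Amn differed by -0.20, Clcn5 by 0.31 and Ocrl by -0.04, with adjusted p = 0.573, 0.351 and 0.936. Lrp2 and Lrpap1 were 2 of the 8 below an unadjusted p of 0.05, as were 3000 of the 12469 genes tested, and they were the members whose groups did not overlap in the lower direction, against 10.1% of all tested genes. Weighting each library by its own noise (limma array weights) gave 4 calls, Lrp2, Cubn, Folr1 and Lrpap1 (adjusted p = 0.00166, 0.0301, 0.0441 and 0.00364), with 28.5% of all genes called. A single member was called without library 24 of WT IRI (Lrpap1, adjusted p = 0.0489; 7.72% of all genes called), without library 49 of WT IRI (Lrp2, adjusted p = 0.0186; 10.8%) or without library 15 of CKO IRI (Lrpap1, adjusted p = 0.0274; 11.7%). The libraries of WT IRI are not part of this difference and act through the shared spread, so leaving them out did not move the estimates. Without library 1 of CKO sham the differences were -1.14 for Lrp2 (adjusted p = 0.0622), -0.80 for Cubn (0.278), -0.59 for Folr1 (0.173), -0.63 for Dab2 (0.267) and -0.62 for Lrpap1 (0.131). Without that library and library 49 of WT IRI together, Lrp2 (adjusted p = 0.00478) and Folr1 (adjusted p = 0.0292) were called, among 8.75% of all genes. The proximal tubule markers summed to between 13870 and 14500 FPKM in CKO sham and between 5665 and 11590 FPKM in CKO IRI, with 2 of 24 called lower. Between CKO sham and WT sham the median difference of the 24 markers was -0.18, with 0 called. The sums in CKO sham, in which Kap weighs heavily, therefore do not show that most markers kept their WT level. Library 29 had the lowest sum, and the lowest Lrp2, Cubn, Amn and Lrpap1, of its group. Library 15 had the highest sum but the lowest Folr1, Dab2, Clcn5 and Ocrl. Any link between the marker sum and the members' levels was not tested.

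Between genotypes in sham kidney, 0 of the 8 members were called by limma, as were 0% of all tested genes; at an unadjusted p under 0.05 there was 1 member, Folr1, and 816 genes in all. The spread behind these p-values was shared by the 4 groups, which were not equally noisy. The median SD over tested genes on the log2 scale was 0.098 in WT sham and 0.168 in CKO sham. It was 0.274 in WT IRI and 0.227 in CKO IRI. Folr1 was 62.4% of its WT level, at 175.6 ± 34.4 FPKM (SD, n = 3) against 281.2 ± 9.72 FPKM (SD, n = 3). All 3 CKO sham libraries were below all 3 WT sham libraries (-0.70, SE 0.22, 95% interval -1.19 to -0.21, adjusted p = 0.748). Cubn, Dab2 and Clcn5 also had no overlap in the lower direction (-0.40, -0.49 and -0.31, with adjusted p = 0.834, 0.761 and 0.757), which makes 4 of 8 members where 13.4% of all tested genes did so. Clcn5 was at 9.70, 11.7 and 12.3 FPKM in CKO sham. Library 1 was the lowest CKO sham library for 7 of the members, the exception being Ocrl, for which it was the highest. Without library 1 the differences were -0.52 for Folr1, -0.19 for Cubn, -0.18 for Dab2 and -0.22 for Clcn5. With array weights Folr1 was called (-0.56, adjusted p = 0.0445), among 0.994% of all genes.

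After injury the receptors were higher, and Amn lower, in the libraries labelled CKO than in those labelled WT, and none of these differences passed the adjusted threshold. Lrp2 averaged 76.4 ± 14.9 FPKM (SD, n = 3) in CKO IRI and 50.5 ± 23.7 FPKM (SD, n = 3) in WT IRI, a difference of 0.66 (SE 0.29, adjusted p = 0.226). Cubn averaged 34.0 ± 4.47 FPKM against 18.6 ± 11.8 FPKM (SD, n = 3 each), a difference of 1.01 (SE 0.36, 95% interval 0.22 to 1.79, adjusted p = 0.166). For both receptors library 49 of WT IRI reached into the range of CKO IRI. Amn averaged 82.1 ± 14.1 FPKM against 138.3 ± 38.7 FPKM (SD, n = 3 each), with no overlap (-0.73, SE 0.20, adjusted p = 0.126). Calls were made for 0 of 8 members and 0.0401% of all tested genes, and 1 of 8 members had no overlap in the lower direction against 11.5% of all tested genes.

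The number of calls between the injured groups changed when library 49 of WT IRI was left out. Without it 3 members were called, Lrp2 at 1.01 (adjusted p = 0.0236), Cubn at 1.46 (adjusted p = 0.0148) and Amn at -0.82 (adjusted p = 0.0409), where 11.3% of all genes were called. Without that library and library 1 of CKO sham together, Folr1 was called as well (0.61, adjusted p = 0.0236), with 12.9% of all genes called. Library 1 of CKO sham is not part of this difference and acts only through the shared spread. With array weights Cubn alone was called (1.09, adjusted p = 0.0399; 5.8% of all genes). Proximal tubule marker sums were 4013, 3740 and 8115 FPKM in WT IRI and 9280, 11590 and 5665 FPKM in CKO IRI. Their part in these differences was not tested.

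The difference between genotypes in the response to injury, tested as an interaction, called 0 of the 8 members and 0.016% of all tested genes. It was 1.41 for Cubn (SE 0.50, adjusted p = 0.218), 1.05 for Folr1 (SE 0.31, adjusted p = 0.188), 0.97 for Lrp2 (SE 0.41, adjusted p = 0.256) and -0.64 for Amn (SE 0.28, adjusted p = 0.267). These 4 genes were the members below an unadjusted p of 0.05, together with 2233 of all genes. For Dab2, Clcn5, Lrpap1 and Ocrl the interaction was 0.89, 0.35, 0.03 and -0.18, with adjusted p = 0.316 to 0.964. The members' calls depended on the libraries and weights: without library 49 of WT IRI, Lrp2, Cubn and Folr1 passed (adjusted p = 0.0447, 0.0325 and 0.0319; 4.68% of all genes called), as they did with array weights (adjusted p = 0.0492, 0.0325 and 0.0286; 6.74% of all genes). Without libraries 49 of WT IRI and 1 of CKO sham together, 1 member passed, Folr1 (1.13, adjusted p = 0.04; 1.2% of all genes). Without library 1 of CKO sham alone, 0 members passed, with Cubn at 1.20, Folr1 at 0.87 and Lrp2 at 0.75 (adjusted p = 0.425, 0.383 and 0.481). That Lrp2, Cubn, Dab2, Folr1 and Lrpap1 were called in WT and not in the knockout therefore does not show that their responses differed.

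Because the level of the anchoring subunit stood higher and that of its receptor lower after injury in WT, the ratio of Amn to Cubn was computed in each library. This ratio and that of Lrpap1 to Lrp2 were chosen after their values were seen, so they are descriptions without a test. In WT sham the Amn to Cubn ratio was 1.58, 1.41 and 1.42, and in CKO sham 2.104, 1.57 and 1.83. After injury it was 21.98, 7.02 and 3.77 in WT and 2.24, 2.82 and 2.21 in the knockout. All 6 injured libraries lay above all 6 sham libraries. In WT the fold after injury was 5.70, but 3.51 without library 13 and 8.48 without library 49. In the knockout it was 1.32, and 1.22 to 1.42 with 1 library left out.

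Lrpap1 to Lrp2, the chaperone to its receptor, was 1.27, 1.17 and 1.24 in WT sham and 4.49, 2.79 and 2.16 in WT IRI, the groups standing apart. The 4.49 is that of library 13, where a short transcript row, Lrpap1-205, held 69.8 FPKM, or 45.2% of Lrpap1. That row held 10.1% and 2.96% in libraries 24 and 49, so the height of the ratio in library 13 rests in part on it. It was 1.99, 1.35 and 1.36 in CKO sham and 1.79, 2.13 and 1.94 in CKO IRI, where sham library 1 lay within the injured range. The fold after injury was 2.45 in WT, and 2.003 to 2.89 with 1 library left out. In the knockout it was 1.26, and 1.44 without sham library 1.

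**Figure D3:**
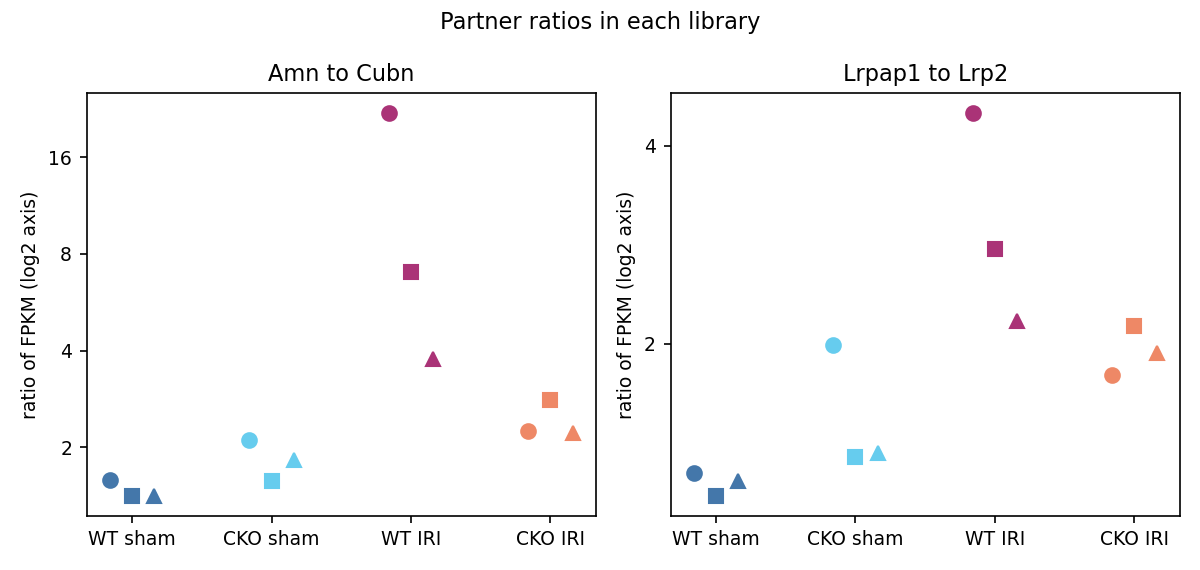
Ratio of Amn to Cubn (left) and of Lrpap1 to Lrp2 (right) in each library (points; the 3 marker shapes separate the libraries of a group) on a log2 axis. The WT IRI libraries reach 3.77 to 21.98 on the left and 2.16 to 4.49 on the right, above all sham libraries. The 4.49 is library 13, where the row Lrpap1-205 held 45.2% of Lrpap1.

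The order of the members' levels per length also differed between the groups. In WT sham the order by mean was Folr1 (281.2 FPKM), Lrpap1 (217.9), Lrp2 (177.9), Dab2 (139.9), Amn (99.8), Cubn (68.0), Clcn5 (14.1) and Ocrl (7.13), and no gene's range overlapped that of its neighbour. Among the 13465 genes Folr1 ranked 188 and Ocrl 6766 there. In WT IRI the order was Lrpap1 (144.1), Amn (138.3), Folr1 (105), Dab2 (60.5), Lrp2 (50.5), Cubn (18.6), Clcn5 (13.7) and Ocrl (8.19), and Lrpap1 with Amn, Amn with Folr1, Dab2 with Lrp2 and Cubn with Clcn5 overlapped. Cubn thus went from rank 1064 to rank 3866 and Amn from rank 732 to rank 479. In CKO sham, without injury, Lrpap1 (221.6) already stood above Folr1 (175.6), followed by Lrp2 (146.9), Dab2 (103.7), Amn (94.2), Cubn, Clcn5 and Ocrl. There Folr1 with Lrp2, Lrp2 with Dab2 and Dab2 with Amn overlapped. In CKO IRI the order was Lrpap1, Folr1, Dab2, Amn, Lrp2, Cubn, Clcn5 and Ocrl, with Dab2, Amn and Lrp2 between 76.4 and 84.0 FPKM and overlapping.

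The transcript rows behind the gene sums differed in how steady they were. Lrp2-201, the full-length megalin transcript of 15460 bases, held between 93.8% and 97.6% of Lrp2 in every library, and Cubn, Amn and Clcn5 have 1 row each. Folr1 has 14 rows: Folr1-202 was at 113.7, 107.6 and 112.9 FPKM in WT sham, but at 0.455, 82.6 and 9.75 FPKM in CKO sham and at 0.302, 49.9 and 75.5 FPKM in WT IRI. Where it was near 0, Folr1-201 was higher, at 91.7 FPKM in CKO sham library 1 and 39.2 FPKM in WT IRI library 13, against 8.48 to 10.3 FPKM in WT sham. Dab2-202 and Dab2-204, of 10 Dab2 rows, shifted in the same way between replicates, Dab2-202 being at 54.7, 3.94 and 4.14 FPKM and Dab2-204 at 21.7, 71.8 and 73.8 FPKM in WT sham.

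Lrpap1-205, a row of 716 bases, was at 69.8 FPKM in WT IRI library 13, or 45.2% of the gene, against 1.72 to 11.1 FPKM in the other 11 libraries. Ocrl was mostly Ocrl-202, at 70.6% to 92.1% of the gene. When each gene was represented by its highest row alone, 3 members were called in WT (Lrp2, Cubn and Lrpap1; 29.4% of all genes), and Dab2 (-1.47, adjusted p = 0.371) and Folr1 (-2.71, adjusted p = 0.222) were not.

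**Figure D4:**
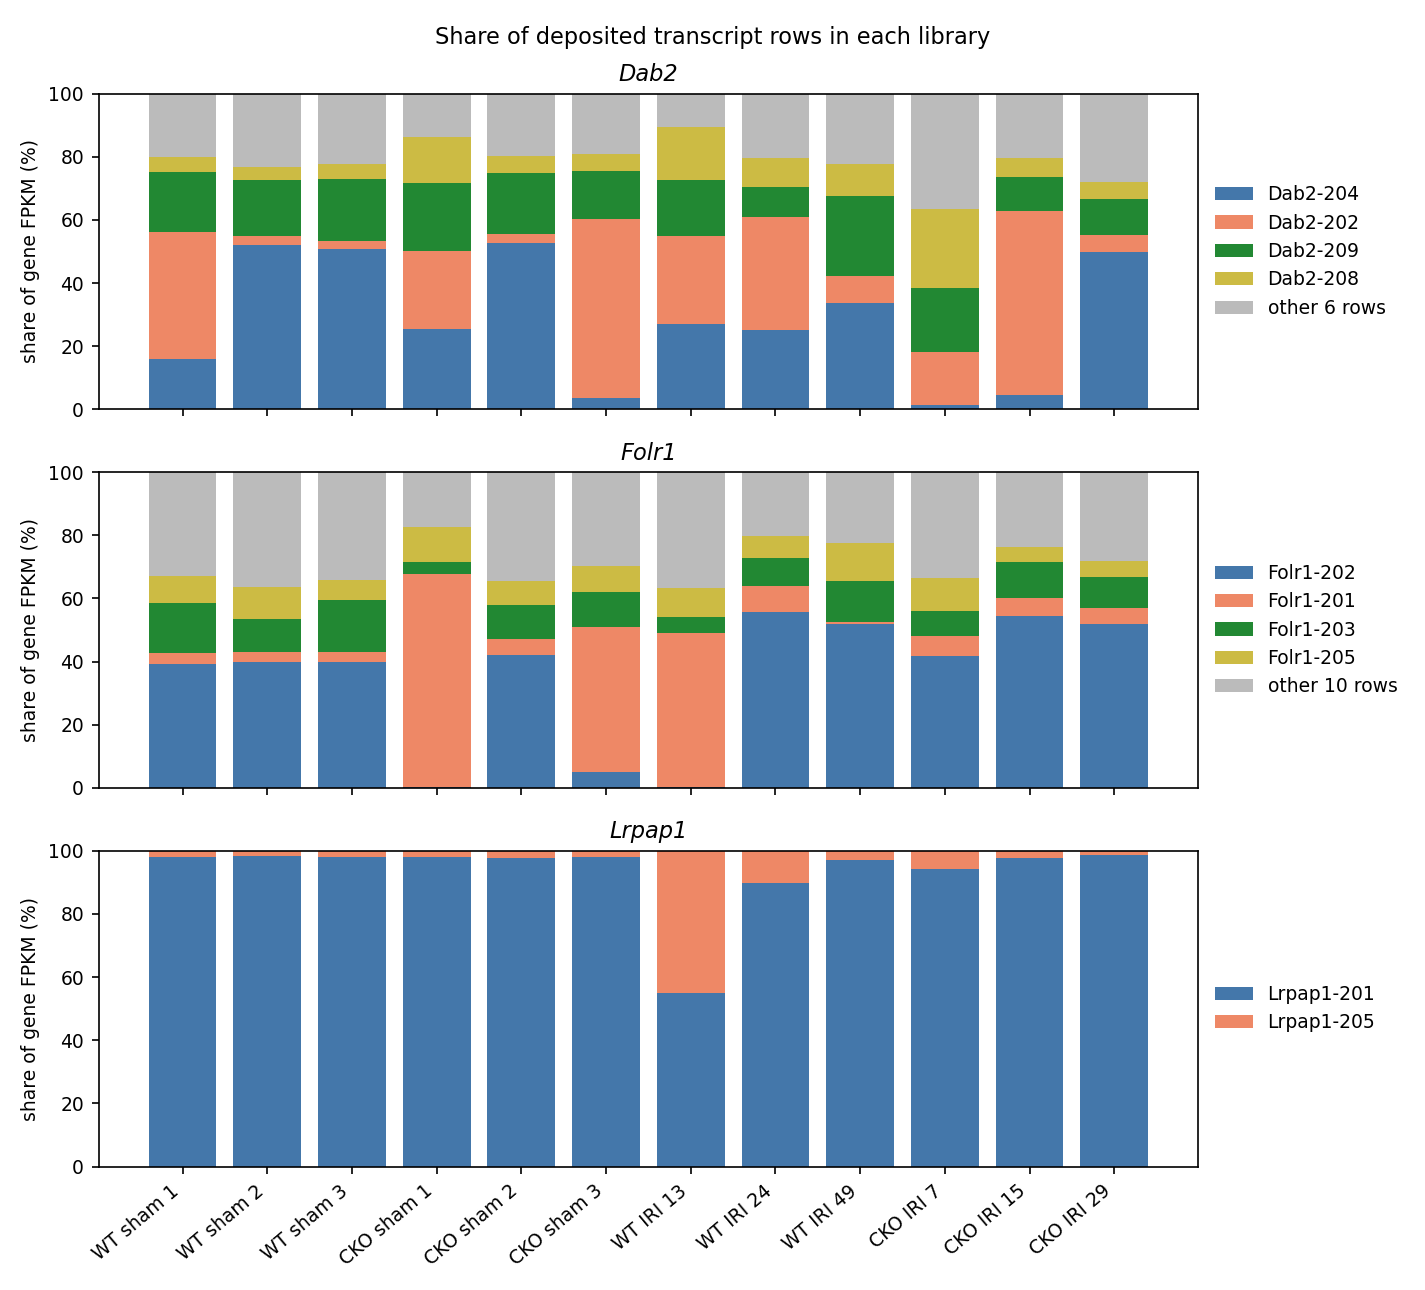
Share of each gene's summed FPKM held by its deposited transcript rows (stacked bars, percent, 4 largest rows and the rest) in each of the 12 libraries for Dab2, Folr1 and Lrpap1. Folr1-202 holds about 39.3% to 39.8% in the WT sham libraries but 0.335% in CKO sham 1 and 0.377% in WT IRI 13, and Lrpap1-205 holds 45.2% in WT IRI 13.

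Genes whose pattern was most like that of the receptors were sought over the 12 libraries, by the root mean square difference of log2(FPKM + 1) after subtracting each gene's WT sham mean. This is a description, and all points share the same libraries. Nearest to Lrp2 were Mccc1 (0.11), Mut (0.15), Timp3 (0.20), Fbp1 (0.20) and Casr (0.20), where the median over all tested genes was 1.29. Nearest to Cubn were Fbp1 (0.17), Mut (0.18), Smpdl3a (0.19), Slc18a1 (0.20) and Fads2 (0.20), with a median of 1.31. Mccc1 and Mut encode mitochondrial enzymes of leucine and propionate breakdown, Fbp1 the gluconeogenic fructose bisphosphatase and Casr the calcium-sensing receptor. The levels of Mccc1 were 59.2, 48.2, 16.4 and 27.9 FPKM in WT sham, CKO sham, WT IRI and CKO IRI.

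The receptors were close to each other by this measure, 0.23 apart. Cubn was the 10th gene from Lrp2, and Lrp2 the 7th from Cubn. Folr1 was next among the members, at 0.34 from Lrp2 (rank 65) and 0.38 from Cubn (rank 72), followed by Dab2 at 0.58 and 0.57. Lrpap1 stood at 0.78 and 0.85. Clcn5, Ocrl and Amn were 1.18 to 1.31 from Lrp2, and Amn was 1.37 from Cubn, about as far as the median gene.

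Beyond the members, 5 lists of genes of the same route were counted. Their counts stand against 25.1% of all tested genes called higher and 11.9% called lower after injury in WT (18.4% and 17.4% with trimmed-mean scaling), and against 5.7% and 1.48% in the knockout. Of 53 tested genes of clathrin coats, adaptors and endosomal traffic, 9 rose and 6 fell after injury in WT (median 0.06), whereas with trimmed-mean scaling 8 rose and 14 fell (median -0.09) and with quantile normalization 8 rose and 10 fell (median -0.01). Those that rose included Gipc1, whose product binds megalin's tail (0.76, 39.4 ± 0.487 to 67.2 ± 4.15 FPKM, SD, n = 3), the AP-2 adaptor subunit genes Ap2s1 (0.77) and Ap2b1 (0.68), and Bin1, a membrane-curving protein (1.31). Those that fell included the early endosome GTPase genes Rab5b (-0.79) and Rab5a (-0.49), Myo6, the motor that carries endocytic vesicles along actin (-1.03, 26.9 ± 1.76 to 12.8 ± 2.75 FPKM, SD, n = 3), and the adaptor Numb (-1.27). In the knockout 1 rose, Sh3glb1 (0.54, adjusted p = 0.0146), and 0 fell, with a median of 0.08; with either of those scalings 1 rose and 1 fell.

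Of 21 other endocytic receptors, 3 rose and 5 fell in WT (median -0.27), where the backgrounds were 25.1% and 11.9%. With trimmed-mean scaling 2 rose and 7 fell in WT, and with quantile normalization 2 rose and 6 fell (median -0.40 in each). In each of these scalings 17.4% of all tested genes fell. Plaur, the urokinase receptor, rose from 3.17 ± 0.220 to 25.4 ± 14.5 FPKM (2.47; SD, n = 3), and Lrp1, a broadly expressed relative of megalin (0.99), and Scarb1, the high-density lipoprotein receptor (0.59), rose from 2.40 and 7.46 FPKM. Cd36, a fatty acid transporter, fell from 56.0 ± 4.79 to 13.6 ± 17.1 FPKM (-2.69; SD, n = 3), and Lrp4 (-0.95), Lrp12 (-0.71) and Fcgrt, which rescues albumin from lysosomes (-0.48), fell too. In the knockout Plaur rose (1.90, adjusted p = 0.0431), a call lost with quantile normalization, and 0 fell.

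Of 27 tested genes of endosome and lysosome acidification, 0 rose and 9 fell in WT (median -0.37; 11.9% of all tested genes fell), or 13 with trimmed-mean scaling (17.4% of all). They included the proton pump subunit genes Atp6v1a (-1.28, 138.6 ± 3.26 to 57.6 ± 15.4 FPKM, SD, n = 3), Atp6v0a4 (-1.17) and Atp6ap1 (-0.95), and the apical sodium-proton exchanger Slc9a3 (-1.66, 33.4 ± 2.47 to 10.8 ± 5.49 FPKM, SD, n = 3). Of 17 tested genes of phosphoinositide enzymes and their partners, 0 rose and 5 fell (median -0.50; 11.9% of all fell), among them Mtm1 (-2.005), Inpp5b, the phosphatase most closely related to Ocrl (-1.15), Pip5k1b (-1.06) and Inpp5f (-0.63). With trimmed-mean scaling, as with quantile normalization, 6 of these 17 genes fell in WT, where 17.4% of all tested genes fell. Mtm1 went from 3.06 ± 0.306 FPKM in WT sham to 0.00911 ± 0.0158 in WT IRI, near 0, so the size of its change depends on the pseudocount. It was uneven between replicates of the sham knockout (0.460 ± 0.790 FPKM, SD, n = 3). Inpp5b was uneven in WT sham, at 13.3 ± 7.30 FPKM against 4.98 ± 0.152 in WT IRI (SD, n = 3). In the knockout 0 genes of either list were called.

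The last list was of vitamin and carrier-protein handling, and some of its genes encode proteins that the receptors retrieve. RNA in the cortex was measured, not the filtered proteins. The list held 21 reported genes. In WT 8 of them fell (median -0.23), where 11.9% of all tested genes fell. With trimmed-mean scaling 8 fell and with quantile normalization 10 fell, where 17.4% of all tested genes fell in each. Tcn2, the plasma carrier of vitamin B12 that megalin retrieves, fell from 961.4 ± 18.1 to 289 ± 124 FPKM (-1.83; SD, n = 3), Selenop, the selenium carrier bound by megalin, by 1.43, Lmbrd1, the lysosomal exporter of the same vitamin, by 0.58, and Alb, albumin, by 1.10 from 6.45 FPKM. In the knockout 1 of them, Alb, fell (-1.01, adjusted p = 0.0142; 1.48% of all fell). In the genotype comparisons and the interaction, 0 of the 139 reported genes of these 5 lists passed limma's adjusted threshold; 17 (12.2%) had an unadjusted p under 0.05 in sham, against 6.54% of all tested genes. After injury 30 (21.6%) did, against 20.9%, and in the interaction 29 (20.9%), against 17.9%.

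**Figure D5:**
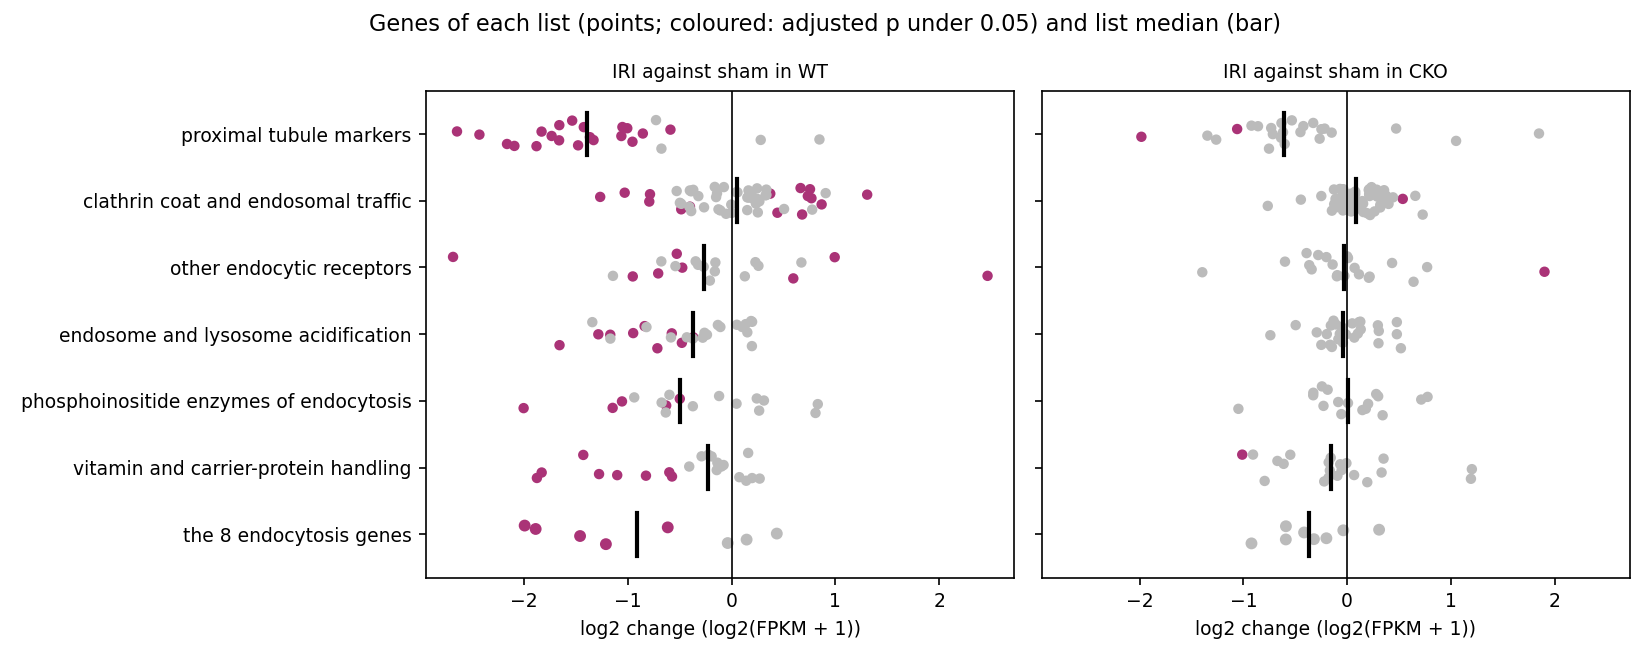
Change after injury of every tested gene of 7 lists (points) on the log2(FPKM + 1) scale in WT (left) and the knockout (right); coloured points passed an adjusted p under 0.05 and bars mark list medians. Among the 5 pathway lists the medians lie between -0.50 and 0.06 in WT, against -1.40 for the proximal tubule markers and -0.91 for the 8 members.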

How the data were processed

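RNA from mouse renal cortex was measured in 12 libraries, 3 in each of 4 groups. The authors deposited 1 table of 25790 transcripts, read here as FPKM; its header names no unit, and TPM would differ by 1 factor per library. The tools named in the submitters' processing notes are HISAT2 2.1.0, StringTie and cutadapt; the build named there, GRCh38, is human although the identifiers are mouse. Strand setting and depth are not given in the sources used here. Every deposited row averages at least 0.5 FPKM in some group.

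Identifiers were matched without version to GENCODE M21 (25740 of 25790; the others held 0.10% of the values or less) and summed per gene. Genes with 1 FPKM or more in at least 3 libraries were tested with limma 3.58.1 (R 4.3.3) on log2(FPKM + 1), a pseudocount of 1, with 1 mean per group, a spread shared by the 4 groups, a mean-variance trend, and Benjamini-Hochberg adjustment over 12469 genes per comparison; calls had an adjusted p under 0.05, two-sided. The fit was tested on simulated data. The 8 members were all named; from each pathway list up to 4 called genes per direction of smallest p were named per injury comparison and up to 2 per genotype comparison, and 5 nearest genes per receptor. Promoter sequences are RefSeq's. Members and lists were chosen with earlier results of these data known. From the vitamin and carrier-protein list, 1 gene is not reported here and stays out of that list's counts, median and plot.

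Alternatives were pseudocounts of 0.5 and 0.1, no filter or 5 FPKM, scaling to 1000000, quantile and trimmed-mean scaling, only the groups compared, array weights, a replicate block, the highest row per gene and leaving out each library.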

Additional observations from a re-analysis of the deposited data

Results flagged for a closer look

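Amn is listed because its injured libraries lay on opposite sides of their sham means in the 2 genotypes. All 3 WT IRI libraries, at 182.9, 113.5 and 118.7 FPKM, lay above the WT sham mean of 99.8 FPKM, and all 3 CKO IRI libraries, at 87.0, 93.2 and 66.2 FPKM, lay below the CKO sham mean of 94.2 FPKM. Neither change passed limma's threshold (0.43 in WT, adjusted p = 0.105; -0.20 in the knockout, adjusted p = 0.573), and the sham and injured groups of the knockout overlapped. The tested difference between the responses was -0.64 on the log2(FPKM + 1) scale (SE 0.28, limma adjusted p = 0.267), which did not pass the threshold; leaving out 1 library at a time gave -0.76 to -0.42.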

How the results depend on the processing

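The number of members called after injury in WT was 5 under every scaling, pseudocount and filter tried, 3 with the highest row only, and 4 to 5 with 1 library left out. In the knockout it was 0, but 4 with array weights, 2 without CKO sham 1 and WT IRI 49 together (an alternative chosen after seeing the data), and 0 to 1 with 1 library left out. Between genotypes in sham it was 0, but 1 with array weights, and 0 to 0 with 1 library left out. Between genotypes after injury it was 0, but 1 with array weights, 4 without both those libraries, and 0 to 3 with 1 left out. The interaction called 0, but 3 with array weights, 1 without both, and 0 to 3 with 1 left out. The cause of these differences was not tested.

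Changes of sign were found in members that were not called. With array weights they were Clcn5 in WT (0.029), Ocrl in the knockout (0.126), Ocrl between genotypes in sham (-0.051) and Clcn5 between genotypes after injury (-0.141). With the highest row only they were Folr1 in the knockout (2.56) and Dab2 between genotypes after injury (-1.34). In the sham comparison Lrpap1 was -0.05 and Ocrl -0.01 with each library scaled to 1000000, and Lrpap1 was -0.056 with quantile normalization, under which it was -0.013 between genotypes after injury. Without CKO sham 1 and WT IRI 49 together, Ocrl was 0.104 in the knockout and -0.085 in sham, and Amn 0.016 in sham. Leaving out 1 library gave -0.107 to 0.017 for Clcn5 and -0.044 to 0.362 for Ocrl in WT; -0.628 to 0.03 for Dab2 and -0.138 to 0.104 for Ocrl in the knockout; -0.188 to 0.016 for Amn, -0.012 to 0.057 for Lrpap1 and -0.085 to 0.156 for Ocrl in sham. It gave -0.199 to 0.201 for Clcn5, -0.134 to 0.224 for Lrpap1 and -0.343 to 0.063 for Ocrl between genotypes after injury, and -0.157 to 0.201 for Lrpap1 and -0.399 to 0.006 for Ocrl in the interaction.

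The sham groups share replicate numbers 1 to 3, and a replicate block in a fit of the sham groups called 0 members, with Folr1 at -0.70 (adjusted p = 0.33). Same-numbered libraries did not deviate together (correlations 0.004, -0.031 and -0.002), so the numbers were not taken as pairs. The median change of all genes in WT was 0.12 and moved to -0.03 with quantile and 0.00 with trimmed-mean scaling. Scalings were applied to the gene lists after seeing the data. The read depth is unknown, so no counting error can be given. With 3 libraries per group, small changes of Clcn5 and Ocrl could not be resolved.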
